A study of Mus musculus with 91 samples.

Results

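The comparison described here is that of the epiblast (Epi) of mouse embryos at embryonic day 7.5 (E7.5) that carried no functional *Dnmt1*, *Dnmt3a* and *Dnmt3b* (*Dnmt*-null, 3 libraries) with that of embryos mutated in *Dnmt1* alone (*Dnmt1*-KO, 4 libraries). Both groups lacked *Dnmt1*, so the comparison addresses what changes among mature miRNAs when the de novo methyltransferases are lost as well. The 7 libraries were taken by their labels from the 91 libraries of the series, and all mature miRNAs in the table were considered. Control Epi (3 libraries), Epi mutated in both *Dnmt3a* and *Dnmt3b* (*Dnmt3a/3b*-DKO, 4 libraries), the extraembryonic ectoderm (Exe) at E7.5 and the Epi at E6.5 were used to place the difference. The control and *Dnmt3a/3b*-DKO Epi libraries of E7.5 were also fitted together with the 7, and so enter their scaling, filter and estimate of spread. The embryos came from B6D2F1 (C57BL/6J × DBA2) females mated with males carrying an Oct4-EGFP transgene on a C57BL/6J background, which the labels give as C57BL/6 male X F1 female. According to the methods, zygotes received mRNA of the base editor hA3A-eBE3-Y130F with guide RNAs that write stop codons into the targeted Dnmt genes, were transferred as 2-cell embryos to ICR females, and the Epi and Exe were separated by needle. The mutants are therefore injected founders and not an inbred mutant line, and whether a library holds 1 embryo or several is not given in the sources used here. Nor do the labels say that replicates came from separate embryos, so that p-values measure only the spread between these libraries. The mRNAs of the edited genes are not measured by a miRNA table, so the genotype could not be checked in it.

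DNMT1 copies existing CpG methylation to the new strand after replication, while DNMT3A and DNMT3B place methylation on unmethylated DNA, chiefly around implantation. A mature miRNA is cut from the 5p or 3p arm of a hairpin, often out of a transcript that carries a whole cluster of hairpins, and finds its targets mainly through its seed, bases 2 to 8. In the early mouse embryo the miR-290 to miR-295 cluster marks naive pluripotent and trophoblast cells, the miR-302/miR-367 cluster marks the post-implantation epiblast, and the imprinted *Dlk1-Dio3* locus carries one of the largest miRNA clusters of the genome.

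The libraries held 272867, 488108 and 280116 counts in *Dnmt*-null and between 797071 and 1244489 in *Dnmt1*-KO, so that 3 counts, used as the limit of detection, stand for 6.15 to 11 CPM (counts scaled to a library of 1000000) in the former and 2.41 to 3.76 in the latter. Levels below are normalized CPM, CPM after scaling the library total by the TMM factor of edgeR, and differences are log2 fold changes, *Dnmt*-null minus *Dnmt1*-KO, with their standard error (SE). Of 652 miRNAs tested, 71 (10.9%) had a Benjamini-Hochberg adjusted p under 0.05 in the quasi-likelihood test of edgeR, 33 higher in *Dnmt*-null (5.06%) and 38 lower (5.83%). Some rows of the table hold identical counts (70 sets, of which 20 are the opposite strands of the same place), and the 71 are 64 distinct count profiles. In 62 of the 71 the libraries of the groups did not overlap, against 126 of all 652 tested (19.3%). By the looser rule of the study, which asks for an unadjusted p under 0.05 and a change beyond 0.5 on the log2 scale either way, 131 (20.1%) passed, 68 of them higher (10.4%) and 63 lower (9.66%).

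The sequences of the miRNAs on which the results turn are shown first, because miR-125a-5p and miR-351-5p, which moved in opposite directions, share a seed, while members of 1 cluster that moved together often carry different ones. They are RefSeq mature sequences of GRCm38.p6, 5′ to 3′, with the seed in capitals, and such a sequence was at hand for 543 of the 652 miRNAs tested and 54 of the 71 called. The first set holds the members of the miR-99b/let-7e/miR-125a cluster, which were higher in *Dnmt*-null.
miR-99b-5p: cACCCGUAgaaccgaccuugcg
let-7e-5p: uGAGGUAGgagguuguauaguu
miR-125a-5p: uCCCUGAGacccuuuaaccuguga
miR-125a-3p: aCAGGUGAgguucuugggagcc

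The next set holds members of the X-linked miR-322/miR-503 cluster, which were lower. The seed of miR-351-5p, CCCUGAG, is that of miR-125a-5p above, and the 2 miR-450 seeds share their first letters.
miR-351-5p: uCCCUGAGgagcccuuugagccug
miR-351-3p: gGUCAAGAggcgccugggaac
miR-503-3p: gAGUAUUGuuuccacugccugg
miR-322-3p: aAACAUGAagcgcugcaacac
miR-450a-5p: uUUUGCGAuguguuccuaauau
miR-450b-5p: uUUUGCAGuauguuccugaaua

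The last set pairs the 5p arms of the miR-290 to miR-295 cluster, which were higher, with a 3p arm of that cluster and the most abundant miRNA of the miR-302/miR-367 cluster, which both carry the seed AAGUGCU. miR-302c-5p and miR-540-3p, the latter from the *Dlk1-Dio3* locus, were lower.
miR-290a-5p: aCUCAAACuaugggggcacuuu
miR-292a-5p: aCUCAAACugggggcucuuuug
miR-294-5p: aCUCAAAAuggaggcccuaucu
miR-295-5p: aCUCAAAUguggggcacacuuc
miR-295-3p: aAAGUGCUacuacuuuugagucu
miR-302b-3p: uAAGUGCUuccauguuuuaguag
miR-302c-5p: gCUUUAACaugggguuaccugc
miR-540-3p: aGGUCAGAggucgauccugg

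The miR-99b/let-7e/miR-125a cluster held miR-99b-5p, which had the smallest p of all 652 miRNAs. Its 5p sequences lie on the plus strand at chr17:17830194-17830840 in GRCm38, inside *Spaca6*, with miR-99b and let-7e in an intron and miR-125a in an exon of the GENCODE annotation. miR-99b-5p, a member of the miR-99/miR-100 family, had 24000, 25900 and 23200 CPM in *Dnmt*-null and 9200, 9840, 7850 and 7490 in *Dnmt1*-KO. The groups were far apart, and miR-99b-5p rose by 1.51 on the log2 scale (SE 0.14, adjusted p = 3.78e-06). miR-125a-3p followed it, at 149, 123 and 118 CPM against 26.6, 41.4, 45.6 and 42.8 (1.73, SE 0.53, adjusted p = 0.0476). For miR-125a-5p, known to restrain LIN28, the *Dnmt*-null libraries had 22300, 9890 and 23400 CPM and the *Dnmt1*-KO libraries 11900, 10800, 4270 and 8380. Here replicate 2 of *Dnmt*-null lay among the *Dnmt1*-KO libraries, and the rise of 1.06 (SE 0.31) had an adjusted p of 0.036. let-7e-5p also overlapped, with 208, 360 and 129 CPM against 99.4, 130, 96 and 90 (1.17, SE 0.36, adjusted p = 0.0495). Of 16 alternative settings, the call of miR-99b-5p held in all, while that of miR-125a-3p was lost in 12, that of let-7e-5p in 10 and that of miR-125a-5p in 6.

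Across the miR-99/miR-100 and miR-125 families, 3 of 7 members tested were higher and none lower, and all 7 estimates lay above 0 (median 1.36, against -0.03 over all miRNAs tested). Together they took 5.0%, 4.20% and 4.87% of the counts in *Dnmt*-null and 2.20%, 2.18%, 1.33% and 1.76% in *Dnmt1*-KO. These shares did not overlap, at 4.69% ± 0.434 (SD, n = 3) against 1.87% ± 0.413 (SD, n = 4), and the exact permutation p was 0.0286, the smallest that 35 divisions of 7 libraries allow, or 0.0686 adjusted over the 12 groups of miRNAs that held at least 1% of counts. The let-7 and miR-98 family did not move as a group, since let-7e-5p was its only member called among 9 and its median was -0.42. let-7b-5p, which the study singled out, had 6.94, 128 and 17.4 CPM in *Dnmt*-null and 20.5, 0, 283 and 8.25 in *Dnmt1*-KO. Both groups ran from near 0 to over 100 CPM, and its log2 fold change of -0.58 had an SE of 1.41 (adjusted p = 0.881).

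**Figure D1:**
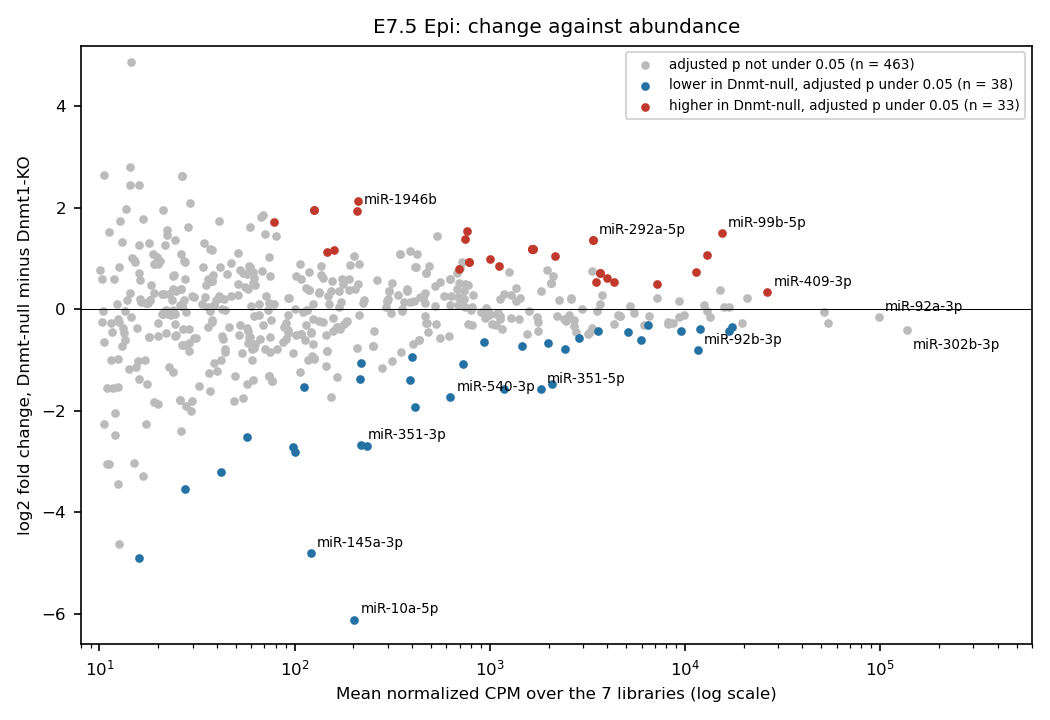
Log2 fold change, *Dnmt*-null minus *Dnmt1*-KO, against mean normalized CPM over the 7 libraries (log scale) for 530 miRNAs with a mean of at least 10 CPM, with 4 more outside the axis. Red and blue points had an adjusted p under 0.05, and miR-99b-5p is the most abundant miRNA with a rise above 1, while miR-302b-3p and miR-92a-3p, the most abundant of all, lie just below 0.

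The list with the most lower calls was the miR-322/miR-503 cluster, a run of hairpins on the minus strand of the X chromosome (chrX:53048008-53054327) that also holds miR-351, miR-450 and miR-542 and has no annotated host gene. miR-322 and miR-503 are known to restrain the cell cycle in differentiating muscle cells. Of 11 members tested 6 were lower and none higher, with a median of -1.57, and the cluster held 0.217% ± 0.0783 of counts (SD, n = 3) against 0.657% ± 0.121 (SD, n = 4). miR-351-3p had 48.6, 57.0 and 55.8 CPM in *Dnmt*-null and 463, 197, 393 and 326 in *Dnmt1*-KO. Every *Dnmt*-null library was thus well under the lowest *Dnmt1*-KO library, a difference of -2.67 (SE 0.32, adjusted p = 6.73e-05). miR-450a-5p had little spread in *Dnmt1*-KO, with 406, 595 and 659 CPM against 1780, 1580, 1650 and 1580 (-1.57, SE 0.17, adjusted p = 2.95e-05).

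The other 4 called members of the cluster had the same direction. miR-503-3p had 31.2, 85.6 and 48.8 CPM against 458, 140, 538 and 337 (-2.69, SE 0.44, adjusted p = 0.000867). miR-322-3p had 69.4, 210 and 195 CPM against 653, 315, 686 and 786 (-1.93, SE 0.38, adjusted p = 0.0032). Replicate 2 of *Dnmt1*-KO was the lowest of its group for each of miR-351-3p, miR-503-3p, miR-322-3p and miR-351-5p, but still above all *Dnmt*-null libraries. miR-351-5p had 448, 1120 and 1000 CPM against 3510, 1820, 2910 and 1970 (-1.57, SE 0.28, adjusted p = 0.00197), so that of the 3 tested miRNAs whose RefSeq sequence carries the seed CCCUGAG, miR-125a-5p was higher, miR-351-5p lower and miR-125b-5p not called. miR-450b-5p fell by 1.39 on the log2 scale (adjusted p = 0.00153).

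Further falls were of miRNAs known from smooth muscle, mesenchyme and striated muscle, at low counts. Of 8 mesenchymal miRNAs tested 2 were lower and of 3 muscle miRNAs 1, with none higher. miR-145a-3p had 0, 5.35 and 17.4 CPM in *Dnmt*-null and 95.3, 155, 323 and 248 in *Dnmt1*-KO (-4.80, SE 0.70, adjusted p = 0.000287). miR-143-3p, of the same cluster, had 6.94, 39.2 and 17.4 CPM against 83.0, 91.4, 245 and 221 (-2.81, SE 0.55, adjusted p = 0.0032). miR-133a-3p, a muscle miRNA, had 20.8, 30.3 and 17.4 CPM against 158, 46.3, 216 and 201 (-2.72, SE 0.64, adjusted p = 0.0105). None of these groups overlapped, although the *Dnmt*-null values rest on few reads, close to the limit of detection. Fewer cells of a type and less RNA per cell cannot be told apart in such bulk libraries, here or in any result below.

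Summed levels of cell type markers are set beside these results. The 6 mesenchymal and decidual markers summed to between 85.68 and 159.8 CPM (without TMM scaling) in *Dnmt*-null and between 135.3 and 418.8 in *Dnmt1*-KO, with 1 of 5 tested lower, and miR-199b-5p and miR-214-3p were at 0 in all *Dnmt*-null libraries. The 5 endoderm markers summed to 2345 to 3063 CPM against 3680 to 4677, with 1 of 5 lower. That marker was miR-375-3p, whose levels of 434, 472 and 2220 CPM in *Dnmt*-null lay under the 2850, 2360, 2860 and 3390 of *Dnmt1*-KO (-1.47, adjusted p = 0.0295). The lower endoderm sum rests mainly on it, since 4 of the 5 endoderm estimates lay above 0 (median 0.57). The 8 blood markers summed to 938.2 to 1160 CPM in *Dnmt*-null and 427.8 to 616.3 in *Dnmt1*-KO, with none of 5 called and miR-144-3p, miR-144-5p and miR-223-3p at 0 in every *Dnmt*-null library. The higher blood sum rests mainly on miR-142a-5p, with a mean of 835 CPM against 308 (adjusted p = 0.073). Of the 10 blood miRNAs tested 3 estimates lay above 0 and 7 below. The 2 endothelial markers overlapped, at 155.7 to 232 against 162.2 to 430.7 CPM, and neither was called. The 9 Exe and trophoblast markers in the table summed to 5533 to 11320 CPM in *Dnmt*-null and 3912 to 4789 in *Dnmt1*-KO, against 56850 to 69050 in control Exe, with 2 of 8 tested higher. The part of these markers in the other results was not tested. The 5 epiblast markers, all of the miR-302/miR-367 cluster, summed to 105300 to 164900 CPM in *Dnmt*-null and 135900 to 200400 in *Dnmt1*-KO, well above the 33370 to 45940 of control Exe, so that the defining markers of the Epi label were present in both groups, with miR-302a-3p and miR-302c-3p lower in *Dnmt*-null.

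**Figure D2:**
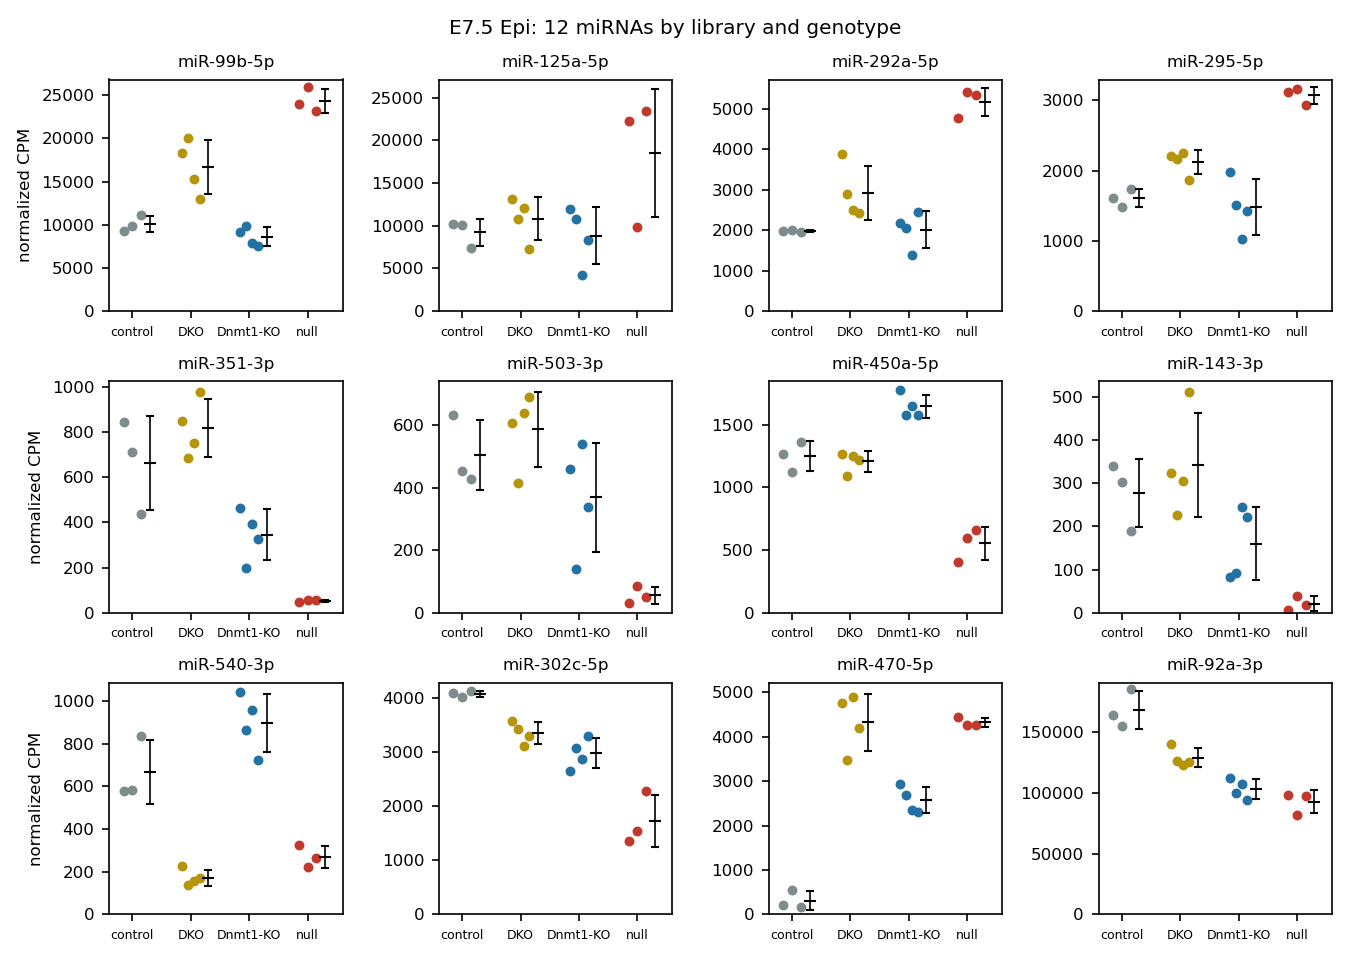
Normalized CPM of 12 miRNAs in each E7.5 Epi library of control, *Dnmt3a/3b*-DKO (DKO), *Dnmt1*-KO and *Dnmt*-null (null), with bars for the mean and SD. In the *Dnmt*-null libraries miR-99b-5p lies between 23200 and 25900 and miR-351-3p between 48.6 and 57.0, apart from all 3 other genotypes, whereas miR-540-3p is low in both genotypes without *Dnmt3a* and *Dnmt3b*.

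Called members of the miR-290 to miR-295 cluster were all higher, and the 3 called members of the miR-302/miR-367 cluster were lower. Of 18 miRNAs of the miR-290 to miR-295 cluster tested (15 distinct count profiles, chr7:3218638-3220837), 9 were higher and none lower, and 17 of the 18 estimates lay above 0 (median 0.89). The 9 include miR-290b-3p, miR-292b-3p and miR-292b-5p, whose levels here are those of miR-290a-5p, miR-292a-5p and miR-292a-3p. The cluster's share of counts was 9.17%, 10.2% and 8.15% in *Dnmt*-null and 6.69%, 6.80%, 4.57% and 5.57% in *Dnmt1*-KO. The shares did not overlap (9.19% ± 1.05, SD, n = 3, against 5.91% ± 1.05, SD, n = 4, exact permutation p = 0.0286, adjusted p = 0.0686). Among its called members miR-292a-5p had the largest rise, from 2180, 2060, 1390 and 2440 CPM in *Dnmt1*-KO to 4770, 5410 and 5340 in *Dnmt*-null (1.36, SE 0.18, adjusted p = 0.000163). Its counts are those of miR-292b-3p, on the opposite strand of the same place inside an exon of *Nlrp12*, and reads of the 2 cannot be told apart. miR-295-5p had 3120, 3160 and 2940 CPM against 1980, 1510, 1020 and 1420 (1.05, SE 0.18, adjusted p = 0.00109). miR-294-5p had 1730, 1460 and 1010 CPM against 852, 753, 556 and 660 (0.99, adjusted p = 0.0032).

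Within that cluster the called rises were mostly of 5p arms. miR-290a-5p (0.72, adjusted p = 0.00455) and miR-291a-5p (0.73, adjusted p = 0.0121) passed, whereas the 3p arms miR-295-3p (0.22, adjusted p = 0.391) and miR-293-3p (0.38, adjusted p = 0.107) did not, and miR-292a-3p was the 3p arm that did (0.94, adjusted p = 0.00419), antisense entries with the same counts aside. Other 3p arms that did not pass had larger estimates at lower mean levels, namely miR-290a-3p (2.63, 26.6 CPM), miR-291a-3p (1.03, 74.2 CPM) and miR-294-3p (0.83, 412 CPM). miR-291b-3p lay below 0 (-0.61, 13.5 CPM). The 5p arms miR-291b-5p (0.78) and miR-293-5p (0.84) did not pass either. Of 3 tested miRNAs whose RefSeq sequence carries CUCAAAC, 2 were higher. The 5p arms took 43.6% ± 1.25 of the cluster's counts in *Dnmt*-null (SD, n = 3) and 34.3% ± 4.51 in *Dnmt1*-KO (SD, n = 4), with an exact permutation p of 0.0571, a measure chosen after the values were seen.

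The miR-302/miR-367 cluster (chr3:127545238-127545800) had 3 of 10 members lower and none higher, and no estimate above 0 (median -0.53). miR-302c-5p had 1360, 1540 and 2280 CPM in *Dnmt*-null and 2660, 3080, 2880 and 3300 in *Dnmt1*-KO (-0.79, adjusted p = 0.00341), and miR-302c-3p fell by 0.72 on the log2 scale (adjusted p = 0.019). The third, miR-302a-3p (-0.57, adjusted p = 0.0495), lost its call in 8 of 16 alternatives. miR-302b-3p, the most abundant miRNA of these libraries, had 95400, 97400 and 153000 CPM against 128000, 166000, 140000 and 177000. These groups overlapped through replicate 3 of *Dnmt*-null, and the log2 fold change of -0.41 had an adjusted p of 0.071. The share of the cluster overlapped too, at 14.6% ± 3.45 (SD, n = 3) against 18.9% ± 3.11 (SD, n = 4), with an exact permutation p of 0.143. miR-92a-3p, the next most abundant miRNA, differed by -0.16 (adjusted p = 0.323), and none of 12 members tested of its miR-17/miR-92a cluster was called.

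**Figure D3:**
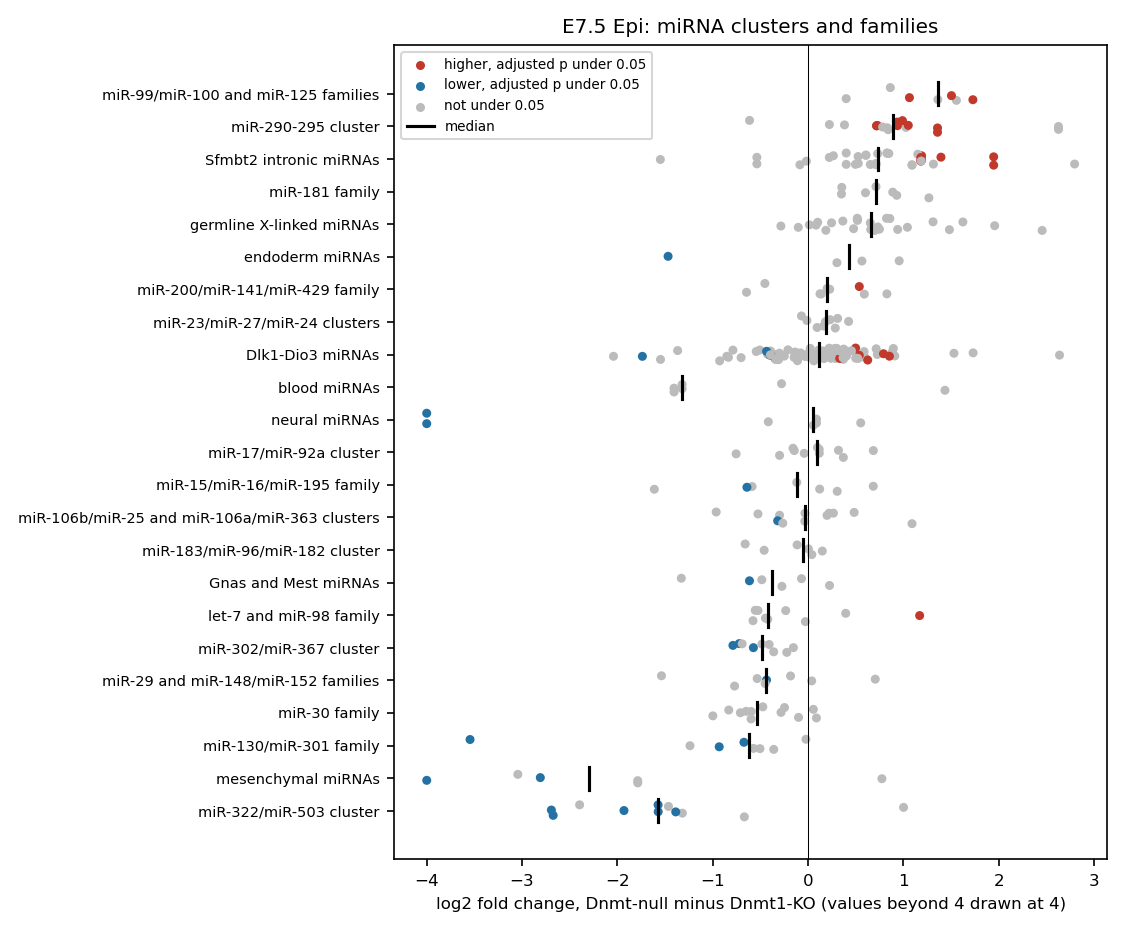
Log2 fold change, *Dnmt*-null minus *Dnmt1*-KO, of the members with a mean of at least 10 CPM in 23 clusters, families and marker groups with at least 5 members tested, where each point is a miRNA and the black bar their median. The miR-99/miR-100 and miR-125 families lie to the right of 0 and the miR-322/miR-503 cluster mostly to the left, with 3 values beyond the edge drawn at 4.

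The miRNAs of an intron of *Sfmbt2*, the rodent miR-466, miR-467 and miR-669 cluster active in placental cells, had 8 of 42 members higher and none lower (median 0.78). Many of the 42 are near-identical copies, with 33 distinct count profiles, and the 8 calls are 4 distinct profiles, so reads of the copies cannot be assigned surely. Both miR-466 profiles lost their calls without replicate 2 of *Dnmt*-null. miR-467a-3p, whose counts are also those of miR-467d-3p, had 240, 207 and 202 CPM in *Dnmt*-null and 61.5, 45.1, 59.8 and 57.0 in *Dnmt1*-KO (1.95, SE 0.33, adjusted p = 0.00114). miR-466a-3p had 2480, 3160 and 1690 CPM against 893, 1180, 1130 and 1080 (1.19, adjusted p = 0.00683), and miR-669c-5p rose by 1.40 (adjusted p = 0.00301). The share of the cluster was 2.32% ± 0.801 (SD, n = 3) against 1.09% ± 0.0661 (SD, n = 4), without overlap (exact permutation p = 0.0286, adjusted p = 0.0686). These miRNAs also make up the Exe and trophoblast markers given above, so the summed marker level moved with this rise and was not tested apart from it.

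At the imprinted *Dlk1-Dio3* locus, which lies on chromosome 12 and expresses its miRNAs from the maternal chromosome, 99 of 113 miRNAs in the table were tested, 6 were higher and 4 lower, near the 5.06% and 5.83% of all miRNAs. The estimates stood on both sides of 0, 57 above and 42 below, with a median of 0.11. The share of counts was 23.3% ± 2.15 (SD, n = 3) against 23.4% ± 1.14 (SD, n = 4, exact permutation p = 0.971). The rises were small, led in abundance by miR-409-3p, with 32600, 29800 and 27500 CPM against 24300, 24600, 24500 and 21800 (0.33, adjusted p = 0.0183). miR-323-3p had 4840, 5020 and 5160 CPM against 2850, 3300, 2860 and 3960 (0.63, adjusted p = 0.00783). miR-494-3p (0.50), miR-485-3p (0.54), miR-543-3p (0.85) and miR-667-3p (0.79) were the other rises. miR-127-3p, among the locus members antisense to *Rtl1*, differed by -0.28 (adjusted p = 0.203) and miR-369-3p by 0.90 (adjusted p = 0.0846), and neither passed.

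The falls within the locus included its largest called change. miR-540-3p had 323, 221 and 265 CPM in *Dnmt*-null and 1040, 862, 959 and 722 in *Dnmt1*-KO (-1.74, SE 0.25, adjusted p = 0.00025). The other falls were miR-434-5p (-0.43, adjusted p = 0.0237), miR-541-5p (-0.40, adjusted p = 0.0274) and miR-370-3p (-0.35, adjusted p = 0.0326), each lost in 6 of 16 alternatives, as the rise of miR-667-3p was in 7. The calls are given by position without a test, and most tested miRNAs of the locus lie in its distal segments. Between *Rian* and *Mirg*, 168.1 to 193.9 kb from the start of *Meg3*, 5 of 47 miRNAs were higher and none lower, and in *Mirg* 1 of 17 was higher and 1 lower. These segments follow the RefSeq genes, by which the hairpin of miR-485 starts just before *Mirg*, while GENCODE places it in an exon of *Mirg*. Upstream of *Rian* 2 of 27 were lower, and within *Rian* 1 of 6, with no rise in either.

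**Figure D4:**
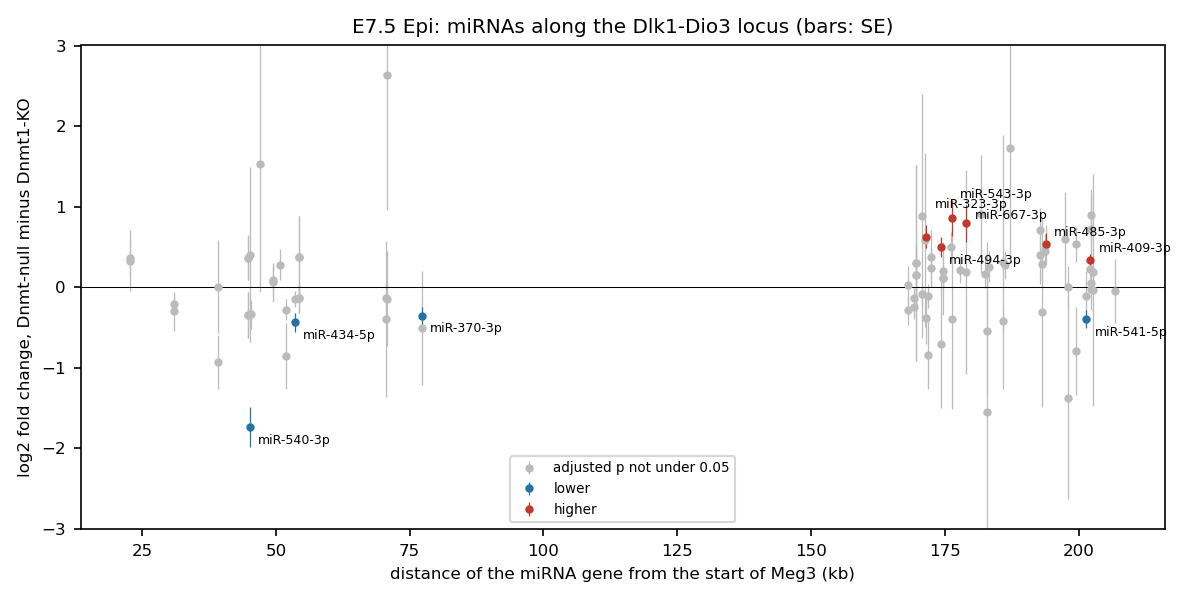
Log2 fold change, *Dnmt*-null minus *Dnmt1*-KO, with its SE for 91 mature miRNAs of the *Dlk1-Dio3* locus against the distance of their gene from the start of *Meg3* (kb). Of the called miRNAs, miR-540-3p, miR-434-5p and miR-370-3p lie below 0 before 100 kb, and beyond it 6 lie above 0 and miR-541-5p below.

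Other imprinted loci gave single calls. Of the 6 miRNAs tested in *Gnas* and *Mest* 1 was lower, and their share was 3.12% ± 0.0581 (SD, n = 3) against 3.75% ± 0.135 (SD, n = 4), again without overlap (exact permutation p = 0.0286, adjusted p = 0.0686). miR-296-3p, from the *Gnas* locus and singled out by the study, differed by -0.48 (adjusted p = 0.159). miR-483-5p, encoded within *Igf2*, was at 0 in all *Dnmt*-null libraries and at 109, 0, 19.7 and 13.5 CPM in *Dnmt1*-KO, which makes it at least 4.06-fold lower against 3 counts in each *Dnmt*-null library (adjusted p = 0.036). Since 1 *Dnmt1*-KO library was also at 0, the groups were not separate. The bound rests on replicate 1 of *Dnmt1*-KO, without which it is 1.27-fold, and the call was lost in 5 of 15 alternatives.

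The 4 genotypes form a 2 by 2 design, so the loss of *Dnmt3a* and *Dnmt3b* could be compared without *Dnmt1* (*Dnmt*-null against *Dnmt1*-KO) and with it (*Dnmt3a/3b*-DKO against control). Their difference was called for 28 of 652 miRNAs (4.29%), 3 higher (0.46%) and 25 lower (3.83%), with a median of -0.13 over all tested, and 13 of the 28 were also called between *Dnmt*-null and *Dnmt1*-KO. For the miR-322/miR-503 cluster 6 members differed. miR-351-3p had 817 ± 127 CPM in *Dnmt3a/3b*-DKO (SD, n = 4) and 663 ± 207 in control (SD, n = 3), a log2 fold change of 0.30 (adjusted p = 0.678) against -2.67 without *Dnmt1*, and the difference of the 2 effects was -2.97 (adjusted p = 0.000239). miR-503-3p (-2.91), miR-322-3p (-2.56), miR-351-5p (-1.81), miR-450b-5p (-1.60) and miR-450a-5p (-1.53) differed the same way. miR-145a-3p, at 212 ± 57.6 CPM in *Dnmt3a/3b*-DKO and 178 ± 68 in control, differed by -5.06 and miR-143-3p by -3.11. For these 8 miRNAs the fall was thus detected only where *Dnmt1* was lost too. The difference of miR-143-3p lost its call when the replicate number was added to the fit (adjusted p = 0.0955).

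miR-540-3p showed the other pattern. It had 226, 138, 155 and 170 CPM in *Dnmt3a/3b*-DKO and 579, 583 and 838 in control, or -1.95 (SE 0.23, adjusted p = 1.23e-05) beside the -1.74 seen without *Dnmt1*. The effects differed by 0.21 (SE 0.33, adjusted p = 0.836), so a difference between them was not detectable at this spread. *Dnmt1*-KO, at 896 ± 138 CPM (SD, n = 4), and control, at 667 ± 148 (SD, n = 3), were not told apart for this miRNA (adjusted p = 0.25). miR-99b-5p rose in both settings, from 10100 ± 922 CPM in control (SD, n = 3) to 16700 ± 3100 in *Dnmt3a/3b*-DKO (SD, n = 4), or 0.73, and by 1.51 without *Dnmt1*, a difference of 0.78 (adjusted p = 0.0229). That last call was lost under 5 of the alternatives tried, and that of miR-294-5p (1.01) under 9, while miR-200c-3p, of the epithelial miR-200 family, also differed (0.95).

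Of the 25 lower differences 14 were X-linked miRNAs of the germline, the rodent clusters around miR-465, miR-470 and miR-741 that are normally expressed in testis. miR-470-5p had 206, 552 and 163 CPM in control, 4750, 3480, 4890 and 4200 in *Dnmt3a/3b*-DKO, 2930, 2680, 2360 and 2310 in *Dnmt1*-KO and 4450, 4260 and 4260 in *Dnmt*-null. It was thus high in every mutant, with a rise of 3.82 (adjusted p = 4.26e-07) on losing *Dnmt3a* and *Dnmt3b* from control, but only 0.75 (adjusted p = 0.105) on losing them from *Dnmt1*-KO, a difference of -3.07. Between *Dnmt*-null and *Dnmt1*-KO none of 27 members tested was called, though 25 estimates lay above 0 (median 0.66) and the share was 2.34% ± 0.392 (SD, n = 3) against 1.5% ± 0.101 (SD, n = 4), with 0.196% in control and 2.48% in *Dnmt3a/3b*-DKO. Against control, 20 of the 27 were higher in *Dnmt3a/3b*-DKO (5.98% of all tested), 19 in *Dnmt1*-KO (8.28%) and 22 in *Dnmt*-null (16.4%), comparisons that share the control libraries.

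In Exe of the same stage, *Dnmt*-null against *Dnmt1*-KO had 40 of 728 miRNAs called (5.49%), and the difference between tissues was called for 10 (1.37%), 1 higher (0.137%) and 9 lower (1.24%) in Epi. The median difference over all miRNAs was -0.29, and 14 were called with RLE in place of TMM scaling, 8 of them higher and 6 lower. miR-351-3p had 1020, 649, 1080 and 1580 CPM in Exe of *Dnmt*-null and 2160, 1890, 1410 and 1370 in Exe of *Dnmt1*-KO, groups that overlapped (-0.66, adjusted p = 0.143), and its difference between the tissues was -2.11, or -1.82 relative to that median. miR-540-3p, at 268 ± 89.7 CPM in Exe of *Dnmt*-null (SD, n = 4) and 244 ± 62.2 in *Dnmt1*-KO (SD, n = 4), had a log2 fold change of 0.14 in Exe (SE 0.31, adjusted p = 0.902) and differed between the tissues by -1.97, or -1.69 relative to the median. miR-503-3p (-1.76), miR-26a-5p (-1.20) and miR-541-5p (-1.09) were also called. Of 15 alternatives, the tissue difference of miR-351-3p held in all, while that of miR-503-3p was lost in 10, RLE among them (adjusted p = 0.0615), that of miR-540-3p in 6, that of miR-541-5p in 4 and that of miR-26a-5p in 1.

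At E6.5, a day earlier, *Dnmt*-null against *Dnmt1*-KO had 42 of 572 miRNAs called in Epi (7.34%), and the stages differed for 18 (3.15%), 12 higher at E7.5 (2.1%) and 6 lower (1.05%), around a median of 0.32. The miR-290 to miR-295 cluster made up 8 of the 12, which include antisense entries with the same values, miR-290b-3p beside miR-290a-5p and miR-292b-3p beside miR-292a-5p. The E6.5 libraries held 45242, 112818, 66655 and 123169 counts in *Dnmt*-null, where 3 counts stand for 24.4 to 66.3 CPM, and 152860 to 600821 in *Dnmt1*-KO. Replicate 1 of *Dnmt*-null, the smallest, was the lowest of its group for miR-290a-5p and the highest for miR-351-3p. miR-290a-5p had 2120, 4020, 6350 and 4860 CPM in E6.5 Epi of *Dnmt*-null and 7540, 6370, 9150 and 10500 in *Dnmt1*-KO, the opposite order of E7.5, and its difference between stages was 1.68, or 1.36 relative to the median. miR-540-3p turned around as well, at 645, 835, 981 and 759 CPM against 310, 321, 298 and 388 at E6.5, a difference of -3.02. For miR-351-3p the E6.5 libraries had 609, 107, 81.8 and 67.6 CPM in *Dnmt*-null and 42.5, 18, 33.1 and 19.6 in *Dnmt1*-KO, but from 5 to 34 reads a library (2.83, adjusted p = 0.00217), and the difference between stages was -5.49. miR-99b-5p (1.08) and miR-541-5p (-1.40) were called too. The call of miR-541-5p held in all 15 alternatives, while that of miR-99b-5p was lost in 5, among them leaving out any E7.5 *Dnmt*-null library.

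Change with stage in control Epi, which shares no library with the comparison, was set beside it. Of the 33 miRNAs higher in *Dnmt*-null 31 were lower in control Epi at E7.5 than at E6.5, 22 of them with an adjusted p under 0.05. Of the 38 lower in *Dnmt*-null 34 were higher at E7.5 in control, 21 with an adjusted p under 0.05. Over the 562 miRNAs tested in both, 245 were above 0 with stage in control (49 with an adjusted p under 0.05) and 317 below (78). The differences had a Pearson correlation of -0.533 across miRNAs, given as a description, since miRNAs are not independent and share libraries, depth and often a transcript. For most called miRNAs the difference thus had the sign opposite to that of the stage difference in control. Between control Exe and control Epi at E7.5, 23 of the 33 higher calls were higher in Exe (17 with an adjusted p under 0.05, and none lower with one), and of the 38 lower calls 24 were lower in Exe (11 with an adjusted p under 0.05) and 14 higher (6). Over the 642 miRNAs tested in both, 275 were higher in Exe (105 with an adjusted p under 0.05) and 365 lower (66). miR-10a-5p, a Hox cluster miRNA, is an example at the edge of detection, with 0, 10.7 and 0 CPM in *Dnmt*-null against 3.07, 11, 977 and 416 in *Dnmt1*-KO (adjusted p = 0.0414).

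**Figure D5:**
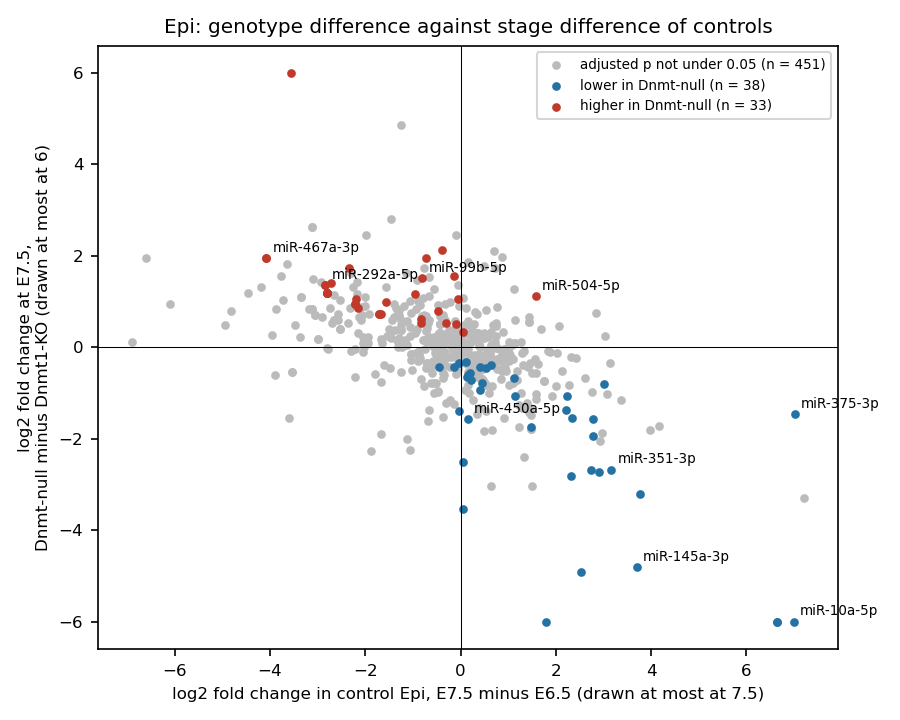
Log2 fold change of *Dnmt*-null minus *Dnmt1*-KO at E7.5 against that of control Epi, E7.5 minus E6.5, for 522 miRNAs with a mean of at least 10 CPM. Most red points (higher in *Dnmt*-null) lie left of 0 and most blue points (lower) right of 0, 31 of 33 and 34 of 38, with values beyond the axis drawn at its edge.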

How the data were processed

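Members and lists of miRNAs were chosen with earlier results of these data known. CAS-seq (Cas9-assisted small RNA sequencing of 100 pg RNA, with PCR and no molecular identifiers described) gave the libraries. Per the submitters' processing notes and the methods, fastp 0.20.1 removed adapters, Bowtie 1.2.1.1 mapped reads to GRCm38, and miRBase 21 named the miRNAs, and the authors deposited a read count per mature miRNA and library, without normalization. Of the table's columns 62 were used and 26 were not.

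All 14 E7.5 Epi libraries were fitted together with edgeR 4.0.16 (R 4.3.3; quasi-likelihood test, TMM, filterByExpr with a minimum count of 10). Differences between tissues and stages used fits of 30 libraries. Shares were compared by exact two-sided permutation tests. Alternatives were DESeq2 1.42.0, RLE scaling, TMM without the *Dlk1-Dio3* miRNAs, 2 other filters, a replicate block, thinning, the 7 libraries alone and leaving out each library. Entering rows with identical counts once was added after seeing the data. In data simulated for the main comparison, with changes of 4-fold, 61.1% of changed and 1.18% of unchanged miRNAs were called. Replicates differed beyond sampling noise (lowest chi-squared per degree of freedom 23.3). Detection limits cover counting error only.

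Named miRNAs are the 12 largest called rises and falls whose libraries do not overlap and whose higher mean is at least 10 CPM, the 10 most abundant, 8 that the study names, called members of each list or its most abundant member, and the 3 smallest adjusted p of each difference of differences. Others named were chosen after their values were seen.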

Additional observations from a re-analysis of the deposited data

Results flagged for a closer look

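A test of the difference itself, with an adjusted p under 0.05 in edgeR, singled out the following miRNAs. Between the loss of *Dnmt3a* and *Dnmt3b* without *Dnmt1* and with it, the log2 differences were -5.06 for miR-145a-3p, -3.11 for miR-143-3p, -3.07 for miR-470-5p, -2.97 for miR-351-3p, -2.91 for miR-503-3p, -2.85 for miR-465a-3p and miR-465c-3p, which hold the same counts, and for the near-identical miR-465b-3p, -2.56 for miR-322-3p and -1.81 for miR-351-5p. They were -1.60 for miR-450b-5p, -1.53 for miR-450a-5p, -0.84 for miR-434-5p, -0.65 for miR-370-3p, 0.78 for miR-99b-5p, 0.95 for miR-200c-3p and 1.01 for miR-294-5p. miR-434-5p and miR-370-3p fell between *Dnmt1*-KO and *Dnmt*-null, while their estimates between control and *Dnmt3a/3b*-DKO were 0.41 (adjusted p = 0.0416) and 0.30 (adjusted p = 0.0784).

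Between Epi and Exe, the differences in the effect of *Dnmt*-null against *Dnmt1*-KO were -2.11 for miR-351-3p, -1.97 for miR-540-3p, -1.76 for miR-503-3p, -1.20 for miR-26a-5p and -1.09 for miR-541-5p, of which the call of miR-351-3p alone held in all 15 alternatives. miR-26a-5p had 27700 ± 7660 CPM in Exe of *Dnmt*-null (SD, n = 4) and 17300 ± 1990 in *Dnmt1*-KO (SD, n = 4), while in Epi it fell by 0.43 on the log2 scale (adjusted p = 0.0185).

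Between E7.5 and E6.5 they were 1.89 for miR-292a-5p and miR-292b-3p, 1.68 for miR-290a-5p and miR-290b-3p, 1.59 for miR-295-5p, 1.25 for miR-295-3p, 1.21 for miR-291a-5p, 1.08 for miR-99b-5p, -1.40 for miR-541-5p, -3.02 for miR-540-3p, -5.49 for miR-351-3p and -11.4 for miR-483-5p. The last is a fitted value with the E7.5 *Dnmt*-null libraries at 0, and at E6.5 the *Dnmt*-null libraries had 1000, 0, 40.9 and 37.6 CPM. Of 15 alternatives (14 for miR-292b-3p), the stage call was lost in 8 for miR-292a-5p, 7 for miR-292b-3p and 5 for miR-99b-5p. It was lost in 2 for miR-291a-5p and miR-483-5p and in 1 for miR-295-3p, and the others held in all.

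In 2 of 85 groups of 4 *Dnmt1*-KO libraries a library stood apart by Dixon's criterion, which chance meets in about 1 in 20 groups. These were miR-409-3p in replicate 4, at 21800 CPM, and let-7b-5p in replicate 3, at 283 CPM.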

How the results depend on the processing

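The 71 calls between *Dnmt*-null and *Dnmt1*-KO became 38 without replicate 2 of *Dnmt*-null, 36 of them among the 71, and 41 with the 7 libraries alone, 39 of them among the 71. Leaving out each library gave 38 to 70, and the other settings 56 to 94 (DESeq2). Of 63 named calls 26 held in every alternative run for them (16, or 15 for miR-467d-3p, miR-292b-3p and miR-292b-5p), among them miR-99b-5p, miR-292a-5p, miR-351-3p, miR-450a-5p, miR-145a-3p and miR-540-3p, and 33 were lost without replicate 2 of *Dnmt*-null. miR-125a-3p and miR-25-3p were lost in 12, let-7e-5p in 10, miR-15b-5p in 9, miR-302a-3p in 8, miR-1946a in 7, miR-125a-5p and miR-10a-5p in 6, miR-483-5p in 5 and miR-375-3p in 4. No named call changed direction. The difference with and without *Dnmt1* (28 calls) became 46 with DESeq2 and 51 with no filter, and 27 to 39 on leaving out libraries. The difference between tissues (10) was the least stable, at 30 with DESeq2, 1 with TMM without the *Dlk1-Dio3* miRNAs, 20 with no filter, 18 with a mean of at least 10 counts, 17 on thinning and 2 to 19 on leaving out libraries: 3 without replicate 1 of *Dnmt*-null, and 19, 2 and 5 without replicates 2, 3 and 4 of *Dnmt1*-KO. That between stages (18) became 37 with DESeq2, 29 with no filter and 8 to 20 on leaving out libraries, with 8 and 10 without replicates 1 and 2 of *Dnmt*-null. Libraries of the same number did not deviate together between *Dnmt*-null and *Dnmt1*-KO in E7.5 Epi (correlations 0.0795, -0.146 and -0.196), which is too few values to exclude pairing. Whether Epi and Exe libraries of the same number pair was not tested. A replicate block gave 56, 27, 5 and 20 calls in these 4 comparisons. The smaller *Dnmt*-null libraries limit what can be seen below about 10 CPM. The cause of each shift was not tested.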

Other observations

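Other families gave few calls. Of the miR-130/miR-301 family 3 of 8 members tested were lower in *Dnmt*-null than in *Dnmt1*-KO and all 8 estimates lay below 0. miR-130b-5p had 1620, 1530 and 1300 CPM against 2450, 2200, 2690 and 2100 (-0.67, adjusted p = 0.0032), and miR-130a-3p had 302, 264 and 220 CPM against 500, 440, 614 and 443 (-0.93, adjusted p = 0.0209). miR-301b-5p, at no more than 10.5 CPM in *Dnmt*-null, was at least 5.15-fold lower (adjusted p = 0.0204). These groups did not overlap. Of the miR-181 family all 7 estimates lay above 0 (median 0.71) and of the miR-30 family 10 of 12 lay below, but no member of either was called. miR-15b-5p was the call among 8 of the miR-15/miR-16/miR-195 family (-0.64, adjusted p = 0.0428), and miR-148a-3p that among 9 of the miR-29 and miR-148/miR-152 families (-0.44, adjusted p = 0.0275). miR-25-3p was the call among 13 of the miR-106b/miR-25 and miR-106a/miR-363 clusters (-0.32, adjusted p = 0.0499). The calls of miR-25-3p and miR-15b-5p were lost in 12 and 9 of 16 alternatives, and that of miR-148a-3p in 5. Of 10 neural miRNAs tested, miR-219a-2-3p and miR-219b-5p, which hold the same counts, were at least 4.45-fold lower (adjusted p = 0.0168), though a library of each group overlapped. None of 10 blood and 4 endothelial miRNAs was called. miR-200c-3p was the call among 9 of the miR-200/miR-141/miR-429 family (0.54, adjusted p = 0.00993). The miR-183/miR-96/miR-182 cluster, the miR-34 family and the miR-23/miR-27/miR-24 clusters had none among 6, 3 and 9 tested.

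Outside all lists stood 15 calls, named here after their values were seen where the rule did not name them. miR-1946b had 378, 351 and 359 CPM in *Dnmt*-null and 33.8, 154, 76.3 and 113 in *Dnmt1*-KO (1.94, adjusted p = 0.0032), and the related miR-1946a followed (2.13, adjusted p = 0.0363). miR-92b-3p, which shares its seed with miR-92a-3p but lies elsewhere, had 9020, 6380 and 8830 CPM against 16000, 12000, 17700 and 10900 (-0.81, adjusted p = 0.00549). miR-365-3p had 156, 135 and 112 CPM against 287, 250, 287 and 302 (-1.07, adjusted p = 0.00419). In each of these the groups stood apart.

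Over 201 hairpins with both arms tested, 5 had both arms called, each in a single direction, and 42 had 1 arm called.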
